A study of Penicillium oxalicum with 18 samples.

Results

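The genes xyn10A (PDE_08094), xyl3A (PDE_00049) and man5A (PDE_06023) encode hemicellulose-degrading enzymes of the filamentous fungus Penicillium oxalicum. They were chosen by name, as xylanase, xylosidase and mannosidase genes that the study lists among its plant cell wall-degrading genes. The study places all 3 in a cluster upregulated in its fbx23 deletion mutant under cellulose, drawn from these same transcriptome data. That comparison is therefore not independent of how the genes were chosen. They are 3 of the 9230 genes in the expression table. Their transcription levels were measured in the WT strain 114-2, in Δfbx23 and in Refbx23, each in VMMG and in VMMC, with 3 libraries in each of the 6 groups. In Δfbx23 the gene fbx23, which encodes an F-box protein, was replaced by the hph marker in the WT. In Refbx23 the fbx23 gene with its own upstream region was put back into Δfbx23 together with the ptrA marker. The genotype listed by the study gives Refbx23 both markers, and the WT carries neither. Whether hph is still present in Refbx23 was not checked here. VMMG is the medium with 2% glucose. VMMC is the cellulose medium, for which the labels give 1% bran and 1% microcrystalline cellulose and the study's methods give ball-milled cellulose alone, and bran is rich in xylan. Mycelia were precultured for 24 h at 30°C, and the labels give 18 h for the culture that followed. The study describes the 3 libraries of the WT and of Δfbx23 in each medium as biological replicates. For Refbx23 the sources used here do not say so, and p-values with that strain may measure technical spread only.

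Hemicelluloses are the branched polysaccharides that coat cellulose fibres in plant cell walls, and xylan and mannan are the main ones. Endo-xylanases such as the product of xyn10A cut the xylan backbone internally, and xylosidases such as the product of xyl3A release xylose from the ends of the short chains that result. Enzymes encoded by man5-type genes act on mannan. In filamentous fungi such genes are commonly kept low on glucose, which acts through carbon catabolite repression, and are induced on plant cell wall material.

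Levels are given in FPKM, in which the fragments of a transcript are scaled by its length and by the number mapped in the library, so that levels can be compared between genes if fragments came from the whole transcript. For tag-based libraries, which the labels describe, scaling by length would distort levels between genes but not between groups for the same gene. Fold changes and standard errors (SE) come from limma on log2(FPKM + 1), with p-values adjusted by Benjamini-Hochberg over all genes tested. Genes that differed by 2-fold or more with an adjusted p under 0.05 were called changed. The p threshold alone was passed by many genes. The counts ran from 1193 of 7894 in Refbx23 against Δfbx23 in VMMC to 5812 of 8053 between the media in the WT. The added 1 FPKM makes the fold changes of low genes smaller than the ratios of their means. With 3 libraries against 3, an exact permutation test of a single gene cannot give a two-sided p below 0.1, and it gave 0.1 wherever the groups did not overlap.

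The table fitted its strain labels, since fbx23 (PDE_08467) was listed at 0 FPKM in all 6 Δfbx23 libraries. The WT had 73.3 ± 3.39 FPKM of it in VMMG and 62.0 ± 4.22 FPKM in VMMC, and Refbx23 had 68.4 ± 5.71 and 60.8 ± 5.42 FPKM (SD, n = 3). The sum of FPKM per library ranged from 781397 to 954142. Correlations between replicates ranged from r = 0.970 to 0.995. The table holds no read counts and the depth is unknown, but from the steps between low values of 172 genes the relative depth ranged from 0.953 to 1.09. Replicate 1 of Δfbx23 in VMMC stood apart for the members. It exceeded the mean of the other replicates by 1.13 for xyn10A and 1.09 for man5A on the log2 scale, and only 50 and 55 of 7856 genes exceeded theirs by more. For xyl3A the same library lay slightly below the others, at −0.065 on that scale. The median over the 13 genes annotated as cellulases was 0.48 in it, and over the other 20 xylan catabolic genes it was 0.13. Fold changes of xyn10A and man5A and counts of called genes that rest on this library are given with and without it. Group means, SDs and ranks include it.

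A list of 6 conidial pigment genes was used as a mark of asexual development. Its summed level ranged from 477.45 to 1074 FPKM in the WT, 44.7 to 66.0 FPKM in Δfbx23 and 3707 to 4481 FPKM in Refbx23 in VMMG. In VMMC the sums ranged from 2511 to 3319 FPKM over all 9 libraries. In VMMG 4 of the 6 genes had a mean under 5 FPKM in Δfbx23, and none did in the other 5 groups. The strains in VMMG therefore differed in these genes together with any difference in the members. Between the media, 6 of the 6 were called higher in VMMC in the WT (median log2 fold change 2.07) and in Δfbx23 (6.76), beside 25.7% and 20.9% of all genes. In Refbx23 0 were called higher and 2 lower (−0.69), beside 13.7% and 7.68%. The medium responses and their differences between strains thus also came with differences in these genes. The part of development in the results was not tested. In such bulk samples, fewer cells that use a gene and less RNA of it per cell cannot be told apart.

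**Figure D1:**
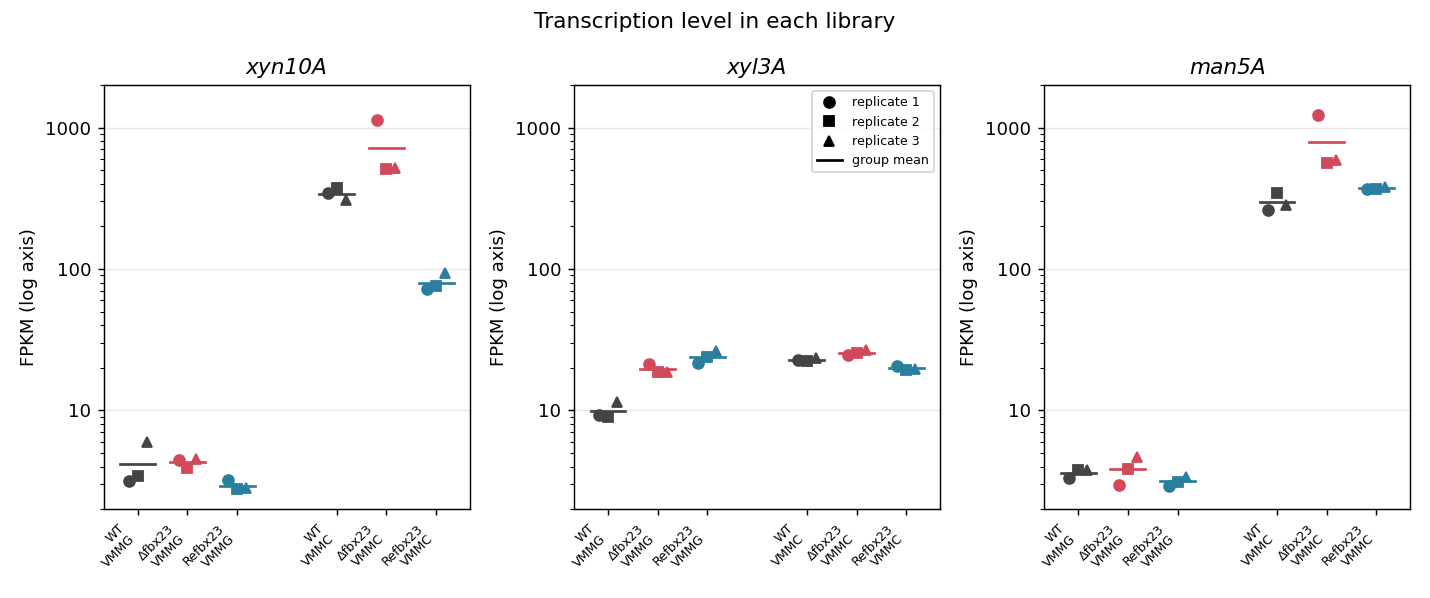
FPKM of xyn10A, xyl3A and man5A in each of the 18 libraries, on a log axis, by strain and medium. Symbols mark the replicate and horizontal lines the group mean. xyn10A and man5A lie between 2.76 and 5.95 FPKM in VMMG and above 71 FPKM in VMMC, while xyl3A lies between 8.95 and 26.7 FPKM throughout.

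xyn10A was weakly transcribed on glucose and strongly in the cellulose medium, and its level in VMMC depended on the strain. In the WT it was at 3.16, 3.46 and 5.95 FPKM in VMMG and at 342.7, 373.1 and 305.8 FPKM in VMMC. The ranges do not meet, and the WT mean was 81.3 times higher in VMMC. The corresponding log2 fold change was 6.07 (SE 0.21, adjusted p = 1.04e-06). In Δfbx23 the gene was at 4.44, 3.91 and 4.53 FPKM in VMMG and at 1121, 507.7 and 517.6 FPKM in VMMC. Every Δfbx23 library in VMMC was above every WT library there, and replicate 1 was far above the other replicates. In Refbx23 it was at 3.21, 2.76 and 2.82 FPKM in VMMG and at only 71.6, 76.1 and 92.9 FPKM in VMMC, below every library of both other strains in that medium.

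The medium response of xyn10A passed the test in all 3 strains, and its ratio of means was 166.6 in Δfbx23, or 119.4 without replicate 1 in VMMC (log2 fold change 6.98, SE 0.30, adjusted p = 3.19e-06, and 6.60 without that replicate) and 27.4 in Refbx23 (4.36, SE 0.11, adjusted p = 2.35e-07). Among all genes tested, 25.7% were called higher in VMMC in the WT, 20.9% in Δfbx23 and 13.7% in Refbx23. Out of 9230 genes, xyn10A ranked 6696 from the top in the WT in VMMG and 371 in VMMC. It ranked 6517 and 210 in Δfbx23, and 7162 and 1570 in Refbx23. Ordered by mean, the 3 VMMG groups come first and their neighbours overlap. The order in VMMC was Refbx23, WT and Δfbx23, at 80.2 ± 11.2, 340.5 ± 33.7 and 715.4 ± 351.3 FPKM (SD, n = 3), with no overlap between neighbours.

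Between the strains in VMMC, the strongest differences of xyn10A were those of Refbx23. Its mean there was 23.5% of that of the WT, which is 4.25-fold lower, and on the log2 scale the difference was −2.08 (SE 0.11, adjusted p = 2.45e-06). Against Δfbx23 it was 11.2%, which is 8.92-fold lower (−3.05, SE 0.29, adjusted p = 0.000748), and without Δfbx23 replicate 1 it was 6.39-fold lower (−2.67, adjusted p = 4.22e-06). Of all genes tested, 7.09% were called lower in Refbx23 than in the WT in VMMC, and 1.67% were called lower in Refbx23 than in Δfbx23. For Δfbx23 against the WT, the difference of 0.97 (SE 0.29, adjusted p = 0.0244) was just under the 2-fold limit. It was 0.59 without Δfbx23 replicate 1 (adjusted p = 0.00365), and it passed the limit without Δfbx23 replicate 2 or 3 or without WT replicate 2, at 1.16, 1.15 and 1.04.

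In VMMG the xyn10A groups lay close together. The log2 difference was 0.065 (SE 0.22, adjusted p = 0.850) for Δfbx23 against the WT, and −0.36 (SE 0.22, adjusted p = 0.214) for Refbx23 against the WT. The sign of the first turned without WT replicate 1 or 2, at −0.075 and −0.025. Refbx23 was 0.43 below Δfbx23 on the log2 scale (−0.43, SE 0.12, adjusted p = 0.0223), without overlap but short of 2-fold. The Refbx23 effect differed between the media by −1.71 (SE 0.25, adjusted p = 0.000170), in a fit where 16.8% of all genes were called in this direction. For the Δfbx23 effect the difference between the media was 0.90 (SE 0.40, adjusted p = 0.0899), which did not pass the test, and it was 0.53 without Δfbx23 replicate 1 in VMMC.

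man5A had a medium response of the same size as xyn10A in the WT, but in Refbx23 its level in VMMC was not low. In the WT it was at 3.31, 3.76 and 3.77 FPKM in VMMG and at 260.9, 343.7 and 281.0 FPKM in VMMC. In Δfbx23 it was at 2.99, 3.84 and 4.66 FPKM and at 1219, 559.9 and 586.4 FPKM, with replicate 1 again far above the others. In Refbx23 it was at 2.91, 3.14 and 3.40 FPKM and at 370.3, 370.1 and 380.65 FPKM. The Refbx23 libraries in VMMC were thus close to each other, above all WT libraries and below all Δfbx23 libraries.

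The ratio of means of man5A between the media was 81.7 in the WT, 205.9 in Δfbx23 and 118.6 in Refbx23, and it was 149.6 in Δfbx23 without replicate 1 in VMMC. The log2 fold changes were 6.0 (SE 0.13, adjusted p = 2.51e-07) in the WT, 7.27 (SE 0.31, adjusted p = 3.06e-06, and 6.91 without replicate 1 in VMMC) in Δfbx23 and 6.50 (SE 0.07, adjusted p = 8.28e-09) in Refbx23. Its rank from the top moved from 6820 to 432 of 9230 genes in the WT, from 6629 to 192 in Δfbx23 and from 7109 to 339 in Refbx23. By mean, the order in VMMC was WT, Refbx23 and Δfbx23, at 295.2 ± 43.2, 373.7 ± 6.03 and 788.5 ± 373.4 FPKM (SD, n = 3), again without overlap between neighbours. The WT and Refbx23 thus stand the other way round than for xyn10A.

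For man5A in VMMC, Δfbx23 was higher than the WT by 1.33 on the log2 scale (SE 0.29, adjusted p = 0.00613), and 6.05% of all genes were called higher in this comparison. Without Δfbx23 replicate 1 the difference was 0.96 (adjusted p = 0.000890), under the 2-fold limit. Refbx23 differed from the WT by 0.35 (SE 0.10, adjusted p = 0.0170), or 1.27 times by means, which was past the p threshold only. In this comparison 4953 of 8012 genes were past that threshold. Refbx23 against Δfbx23 gave −0.98 (SE 0.27, adjusted p = 0.0540), a mean of 47.4% of that of Δfbx23. This last difference was −0.62, a mean of 65.2%, without Δfbx23 replicate 1, and it was called without Δfbx23 replicate 2, at −1.18 with an adjusted p of 0.0479.

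In VMMG the man5A groups overlapped in every pair of strains. The differences were 0.053 (SE 0.16) for Δfbx23 and −0.15 (SE 0.13) for Refbx23 against the WT, and −0.21 (SE 0.16) for Refbx23 against Δfbx23, with adjusted p-values of 0.837, 0.353 and 0.309 by limma. Without Δfbx23 replicate 3 the first turned to −0.069. The Δfbx23 effect on man5A was larger in VMMC than in VMMG by 1.27 (SE 0.36, adjusted p = 0.0162), where 9.56% of all genes were called in this direction. This difference fell to 0.91 without Δfbx23 replicate 1 in VMMC (adjusted p = 0.00718), and with library weights it was 0.77 and did not pass (adjusted p = 0.0875). The Refbx23 effect differed between the media by 0.50 (SE 0.14, adjusted p = 0.0110), short of 2-fold.

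xyl3A varied far less than the other genes, since its mean lay between 19.5 and 25.6 FPKM in 5 of the 6 groups and was lower in the WT on glucose. In VMMG it was at 9.33, 8.95 and 11.5 FPKM in the WT, at 21.15, 18.7 and 18.7 FPKM in Δfbx23 and at 21.8, 24.0 and 26.2 FPKM in Refbx23. All WT libraries were below all libraries of both other strains. In VMMC it was at 22.6, 22.5 and 23.4 FPKM in the WT, at 24.8, 25.3 and 26.7 FPKM in Δfbx23 and at 20.45, 19.4 and 19.5 FPKM in Refbx23. Replicate 1 of Δfbx23, which stood apart for the other genes, was the lowest of its group here.

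Ordered by mean, xyl3A ran from the WT in VMMG at 9.92 ± 1.37 FPKM through Δfbx23 in VMMG at 19.5 ± 1.41, Refbx23 in VMMC at 19.8 ± 0.572, the WT in VMMC at 22.8 ± 0.506 and Refbx23 in VMMG at 24.0 ± 2.22 to Δfbx23 in VMMC at 25.6 ± 0.964 FPKM (SD, n = 3). The WT in VMMG did not overlap with its neighbour. Neither did Refbx23 and the WT in VMMC, while the other 3 neighbouring pairs overlapped. The rank of xyl3A among 9230 genes lay between 3984 and 5654 in all groups, and in VMMC its FPKM was below that of xyn10A in every library. Within VMMC its order of strains was Refbx23, WT and Δfbx23 without overlap, the same order as for xyn10A, over a much narrower range.

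In VMMG xyl3A was called higher in Refbx23 than in the WT, by 1.20 on the log2 scale (SE 0.13, adjusted p = 0.000845), and its mean was 2.42 times as high. In this comparison 11.5% of all genes were called higher. For Δfbx23 against the WT the difference was 0.91 (SE 0.12, adjusted p = 0.00372), or 1.97 times by means, short of the 2-fold limit, and it was 1.01 and past it without WT replicate 3 (adjusted p = 0.00185). None of the 3 members was called in this comparison, in which 11.8% of all genes were called, nor in Refbx23 against Δfbx23 in VMMG, in which 21.8% were called. The last comparison gave 0.28 for xyl3A (SE 0.10, adjusted p = 0.0507). Of the 6 pigment genes, 5 were called lower in Δfbx23 and 6 higher in Refbx23 than in the WT in VMMG, beside 7% and 11.5% of all genes. The part of the pigment genes in these values was not tested.

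The medium response of xyl3A was called in the WT only. It was 1.13 there (SE 0.11, adjusted p = 0.000124), a ratio of means of 2.30. It was 0.38 in Δfbx23 (SE 0.09, adjusted p = 0.00645) and −0.26 in Refbx23 (SE 0.09, adjusted p = 0.0315). The WT response was just under 2-fold after median-ratio scaling, at 0.98. The tests of the difference bear on the strains directly, since the effect of Δfbx23 was lower in VMMC than in VMMG by 0.76 (−0.76, SE 0.14, adjusted p = 0.00138) and that of Refbx23 was lower by 1.40 (−1.40, SE 0.14, adjusted p = 1.27e-05). Within VMMC the largest ratio of means between the strains, Δfbx23 over Refbx23, was 1.29. The log2 differences there were 0.16 (SE 0.07, adjusted p = 0.112) for Δfbx23 and −0.20 (SE 0.07, adjusted p = 0.0289) for Refbx23 against the WT, and −0.36 (SE 0.07, adjusted p = 0.0122) for Refbx23 against Δfbx23.

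**Figure D2:**
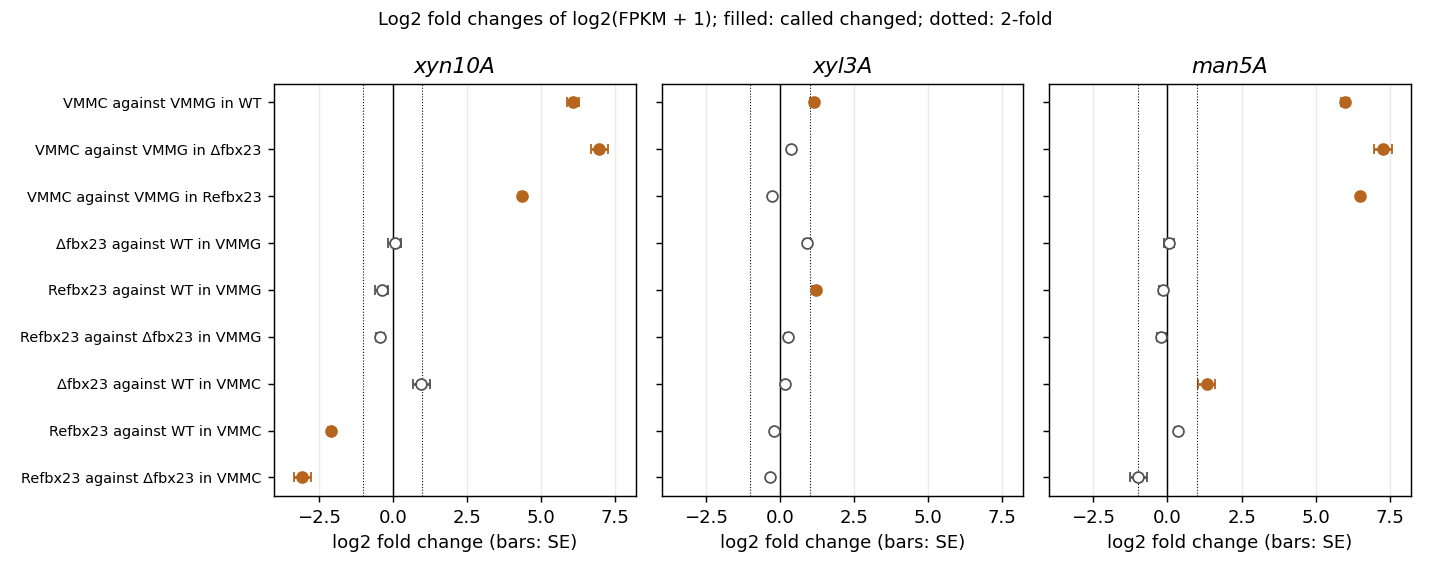
Log2 fold changes of the 3 genes in the 9 comparisons between groups, on the log2(FPKM + 1) scale, with bars of 1 SE. Filled points were called changed and dotted lines mark 2-fold. For xyn10A, Refbx23 in VMMC lies at −2.08 against the WT and −3.05 against Δfbx23, where man5A lies at 0.35 and −0.98.

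In the WT, all 3 members were thus called higher in VMMC than in VMMG, beside 25.7% of all genes. In the mutant strains xyn10A and man5A were, beside 20.9% of all genes in Δfbx23 and 13.7% in Refbx23. The VMMC and VMMG groups did not overlap for any member in any strain, and xyl3A in Refbx23 was lower in VMMC. Counted in either direction, this lack of overlap held for 77% of all genes in the WT, 76.3% in Δfbx23 and 69.4% in Refbx23. Between strains in VMMC the groups of all 3 members did not overlap in any pair of strains. This was so for 61.1% of all genes in Δfbx23 against the WT, 68% in Refbx23 against the WT and 35.9% in Refbx23 against Δfbx23. In VMMG only xyl3A did not overlap in Δfbx23 against the WT, beside 45.8% of all genes, and in Refbx23 against the WT, beside 58.8%. In Refbx23 against Δfbx23 in VMMG xyn10A and xyl3A did not overlap, beside 67.1% of all genes. Comparisons that share a strain in a medium share its libraries, so their values are not independent of each other.

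The ratio of man5A to xyn10A within a library does not depend on the scaling between libraries, and it separated Refbx23 in VMMC from every other group. In the WT in VMMC the ratio was 0.761, 0.921 and 0.919, so both genes had about the same FPKM. In Δfbx23 in VMMC it was 1.09, 1.10 and 1.13, and it was as steady in replicate 1 as in the others although both genes were far higher there. In Refbx23 in VMMC it was 5.17, 4.86 and 4.10. On the log2 scale the means were −0.21 ± 0.16, 0.15 ± 0.03 and 2.23 ± 0.17 (SD, n = 3). Refbx23 differed from the WT by 2.44 and from Δfbx23 by 2.08, and Δfbx23 from the WT by 0.36, each with no overlap and an exact permutation p of 0.1, the smallest that 3 against 3 allows. In VMMG the means were −0.16 ± 0.43 in the WT, −0.19 ± 0.34 in Δfbx23 and 0.10 ± 0.22 in Refbx23. These groups overlapped, and the exact permutation p-values lay between 0.3 and 0.8.

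Ratios to xyl3A changed sign with the medium. The log2 ratio of xyn10A to xyl3A was −1.29 ± 0.31 in the WT, −2.19 ± 0.12 in Δfbx23 and −3.03 ± 0.24 in Refbx23 in VMMG, so xyl3A had the higher FPKM on glucose. In VMMC it was 3.89 ± 0.17, 4.70 ± 0.69 and 2.01 ± 0.23. The ratio of man5A to xyl3A ran from −1.45 ± 0.18 in the WT to −2.93 ± 0.02 in Refbx23 in VMMG. In VMMC it was 3.68 ± 0.22 in the WT, 4.85 ± 0.67 in Δfbx23 and 4.24 ± 0.06 in Refbx23. No pair of strains overlapped in either of these ratios in either medium. In VMMC the difference of Δfbx23 from the WT was 0.81 for xyn10A to xyl3A and 1.17 for man5A to xyl3A, and without Δfbx23 replicate 1 these were 0.41 and 0.78.

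**Figure D3:**
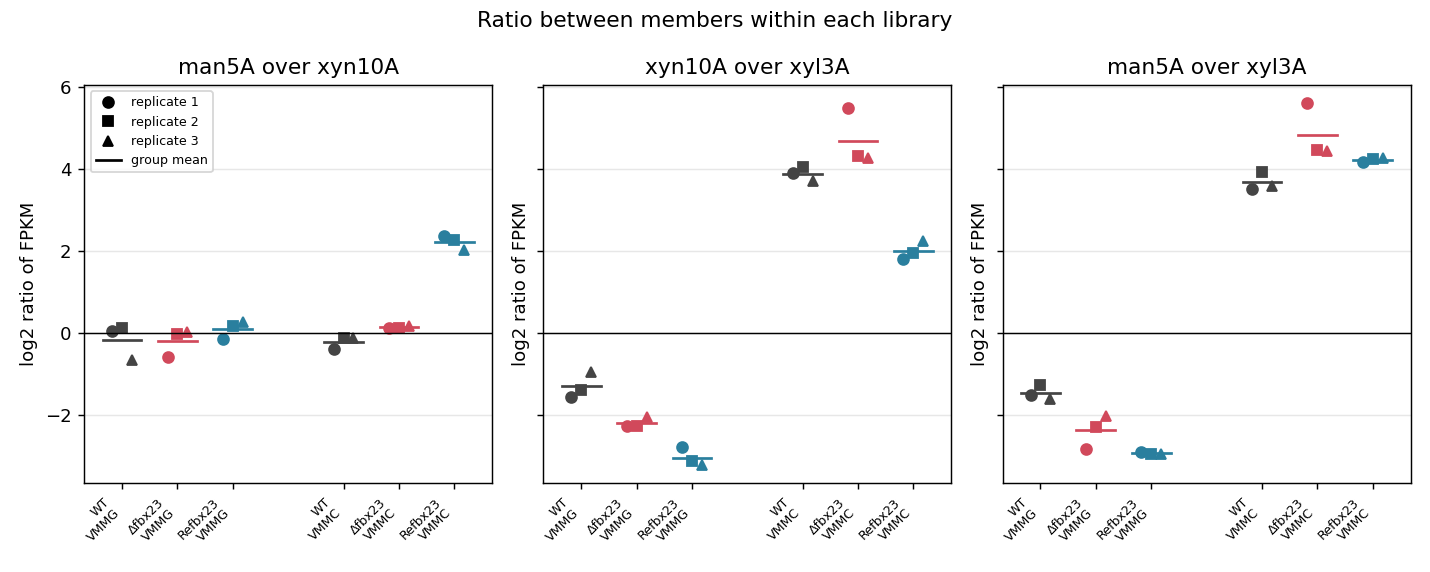
Log2 ratio of FPKM between the genes within each library, by strain and medium, with symbols for the replicate and lines for the group mean. The ratio of man5A to xyn10A is near 0 in 5 groups and lies at 2.23 on average in Refbx23 in VMMC.

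The other genes annotated with xylan catabolic process, 20 without xyn10A and xyl3A, give the setting of these values. Their annotation term was picked by the study because it was enriched among the genes changed in Δfbx23 in VMMC, so the count for that comparison is not independent evidence. Other comparisons with the Δfbx23 or WT libraries in VMMC share libraries with that comparison. Their counts are therefore not free of this choice either. In the WT, 12 of the 19 tested were called higher and 4 lower in VMMC than in VMMG, where 25.7% and 15.5% of all genes were, with a median of 1.93 on the log2 scale against 0.13 over all genes. PDE_04478 was called higher by 6.13, close to xyn10A. PDE_09478 and the xylanase gene xyn11A (PDE_02101) were lower there, at −2.66 and −2.14. The WT libraries of xyn11A in VMMC were near the floor, at 7.43, 2.18 and 0 FPKM. In Δfbx23, 15 of 19 were called higher and 2 lower (median 2.68, all genes 0.18), with the same counts without replicate 1 in VMMC, and 11.9% of all genes were called lower. In Refbx23 11 of 19 were higher and 2 lower (median 1.40, all genes 0.06), and 7.68% of all genes were called lower.

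Between strains in VMMC, the other xylan genes were called in both directions in Refbx23 against the WT. In the other strain comparisons there, they were called mostly or only in a single direction. In Refbx23 against the WT 3 of 19 were called higher and 5 lower, with a median of −0.34 against −0.01 over all genes, of which 5.63% were called higher and 7.09% lower. Those called lower were PDE_06649 (−2.12), PDE_02418 (−2.04), PDE_04478 (−1.99), PDE_07897 (−1.30) and PDE_04182 (−1.05), and the first 3 were close to the value of xyn10A. Those called higher were xyn11A (4.26), PDE_02682 (1.89) and PDE_00752 (1.84). The xylanase gene xyn11A had a mean of 3.20 FPKM in the WT, 436.8 FPKM in Δfbx23 and 56.7 FPKM in Refbx23 in VMMC. In Refbx23 it was thus above the WT where xyn10A was below it. The size of its fold change rests on WT libraries near the floor, at 7.43, 2.18 and 0 FPKM. In Refbx23 against Δfbx23, 0 of 20 were called higher and 10 lower by limma, and of all genes 1.44% and 1.67% were (median −1.02, all genes 0.03). Without Δfbx23 replicate 1, 0 were higher and 11 lower. In Δfbx23 against the WT 9 of 20 were higher and 1, PDE_08037, lower (median 0.72, all genes −0.03), and 8 were higher without Δfbx23 replicate 1. Of all genes, 6.05% were called higher and 8.34% lower in this comparison.

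**Figure D4:**
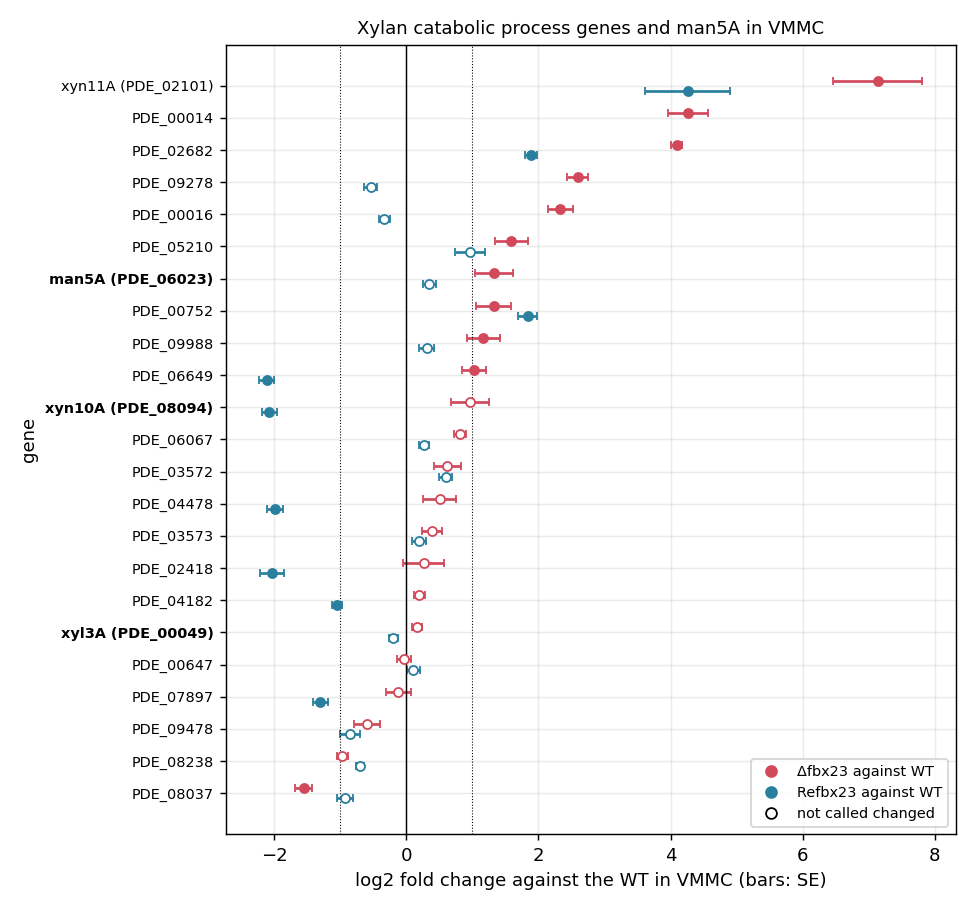
Log2 fold changes against the WT in VMMC, with bars of 1 SE, of the xylan catabolic process genes and man5A, for Δfbx23 and for Refbx23. Both comparisons use the same WT libraries. Open points were not called changed and dotted lines mark 2-fold. xyn10A lies at 0.97 and −2.08, man5A at 1.33 and 0.35, and xyl3A at 0.16 and −0.20.

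In VMMG fewer of these genes were called. Of 15 tested, 3 were called higher and 0 lower in Δfbx23 than in the WT (median 0.42, all genes −0.07), beside 4.77% and 7% of all genes. In Refbx23 2 were higher and 2 lower than in the WT (median −0.02, all genes 0.01), beside 11.5% and 6.8% of all genes. In Refbx23 against Δfbx23 in VMMG 3 were higher and 4 lower (median −0.72, all genes 0.06), beside 13.4% and 8.42% of all genes. For xylanase activity, 9 genes without xyn10A and any other member, 4 were called higher and 2 lower in Refbx23 than in the WT in VMMC. In this comparison 5.63% of all genes were called higher and 7.09% lower. The broader term cell wall polysaccharide catabolic process, with 21 genes besides the members, gave 3 higher and 5 lower of 20 tested in the same comparison, largely because it holds nearly the same genes.

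The 13 cellulase genes, whose products cut the cellulose that these hemicelluloses surround, were called higher in VMMC than in VMMG in 9 of 12 tested in the WT and lower in 2, with a median of 4.98, beside 25.7% and 15.5% of all genes. Those lower were cel5E (−3.98) and cel12B (−3.10). In Δfbx23 against the WT in VMMC 9 of 13 were higher and 1 lower (median 1.55), with the same counts without Δfbx23 replicate 1, beside 6.05% and 8.34% of all genes. In Refbx23 in VMMC, 0 were higher and 3 of 12 lower than in the WT (median −0.74), beside 5.63% and 7.09% of all genes by limma. In Refbx23 against Δfbx23 in VMMC 11 of 13 were lower and 0 higher (median −2.54), and the counts were the same without Δfbx23 replicate 1, beside 1.67% and 1.44% of all genes. The values of xyn10A in these comparisons, −2.08 and −3.05, were below the cellulase medians, and those of man5A, 0.35 and −0.98, were above them.

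The genes whose patterns were most like those of the members were found by Pearson's correlation of log2(FPKM + 1) over the 18 libraries, among 8055 genes. The libraries share groups and media, so r is a description. The genes were picked for likeness in these same libraries, so an order of groups shared with a member is no separate evidence. For xyn10A the closest were PDE_09901 (r = 0.990), PDE_04478 (0.988), eg1 (0.988), an endoglucanase gene, PDE_05633 (0.987), a lytic polysaccharide monooxygenase gene, and PDE_04182 (0.985). Of these, PDE_04478 and PDE_04182 are also among the xylan catabolic genes. All 5 were lower in Refbx23 than in the WT in VMMC by mean, for example 77.4 FPKM against 311.7 FPKM for PDE_04478 and 143.5 FPKM against 393.4 FPKM for PDE_05633. Within the 9 VMMC libraries their r lay between 0.913 and 0.991, whereas within the 9 VMMG libraries it was negative for 4 of them. For man5A the closest were cel5B (0.994), PDE_00507 (0.993), PDE_04297 (0.992), PDE_06451 (0.991) and PDE_00678 (0.990). Of these PDE_04297 and PDE_00678 were listed at 0 FPKM in all VMMG libraries. Within the 9 VMMC libraries the r of the 5 genes with man5A lay between 0.149 (PDE_00678) and 0.875 (PDE_00507). The r over the 18 libraries therefore does not show that they follow man5A between strains.

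For xyl3A the closest genes were PDE_07588 (r = 0.954), PDE_07267 (0.944), PDE_09020 (0.925), PDE_04605 (0.918) and PDE_03487 (0.914), and the WT in VMMG was the lowest group by mean for all 5. PDE_09020 was at 11.98 FPKM there and between 19.8 and 24.5 FPKM in the other 5 groups. These genes were picked for likeness to xyl3A, so the shared lowest group is no separate evidence. Within VMMC their r with xyl3A lay between 0.22 and 0.90, and within VMMG between 0.90 and 0.98. None of the 15 genes was shared between the lists of the 3 members. xyn10A and man5A had r = 0.966 with each other, and 15 genes were more like xyn10A and 67 more like man5A than that. This fell to 0.46 within VMMG and 0.58 within VMMC. xyl3A had r = 0.50 with xyn10A and 0.48 with man5A over all libraries. Within VMMC these were 0.90 and 0.51, so there xyl3A had a higher r with xyn10A than man5A had, and within VMMG they were −0.29 and −0.27.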

How the data were processed

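The authors mapped reads to the P. oxalicum genome and deposited FPKM per gene and library, with replicates kept apart. The aligner and genome version are not given in the sources used here. The labels give 18 h of culture and a tag-based library protocol, whereas the study's methods give 24 h and RNA-Seq, and this could not be settled. FPKM were used as deposited. Strain and medium of the 18 libraries were taken from the labels. Groups were compared with limma 3.58.1 (R 4.3.3) with an intensity trend on log2(FPKM + 1). Genes whose mean in a comparison was below 1 FPKM were left out. There were 9 comparisons between groups, on 6 libraries each, and 2 tests of a strain effect between media. Single genes and ratios were compared by two-sided exact permutation tests with scipy 1.17.1. The steps were tested on simulated data. Alternatives were pseudocounts of 0.1 and 0.5, no filter or a minimum mean of 5 FPKM, a fit over all libraries, median-ratio scaling, a replicate block, no intensity trend, library weights, and each library left out in turn.

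The members and lists were chosen with earlier results of these data known. Named genes were the members, the called genes of the fixed lists and the 5 genes most like each member by Pearson's r. Not every called gene of the lists is named. The reference at hand is of another strain and shares no identifiers with the table, so neither positions nor sequences are given. Without counts no limit from counting could be given. Reads of near-identical genes may have been split in a way that could not be checked.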

Additional observations from a re-analysis of the deposited data

Results flagged for a closer look

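Strain effects that differed between the media were flagged by the interaction test of limma at an adjusted p under 0.05. Of all genes tested, 3447 of 8062 passed this for the Δfbx23 effect and 4605 of 8072 for the Refbx23 effect. The Δfbx23 effect was lower in VMMC than in VMMG by 0.76 for xyl3A (−0.76, adjusted p = 0.00138) and higher by 1.27 for man5A (adjusted p = 0.0162). The man5A value was short of 2-fold without Δfbx23 replicate 1 in VMMC (0.91). With library weights it did not pass the test (0.77, adjusted p = 0.0875). For xyn10A the Δfbx23 effect did not pass (0.90, adjusted p = 0.0899). The Refbx23 effect was lower in VMMC by 1.71 for xyn10A (−1.71, adjusted p = 0.000170) and by 1.40 for xyl3A (−1.40, adjusted p = 1.27e-05), and it was higher by 0.50 for man5A (adjusted p = 0.0110). Of the values that passed, −0.76 and 0.50 were short of 2-fold.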

How the results depend on the processing

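The 33 results for the 3 genes were recomputed in 525 alternative values, of which 511 kept their direction and their side of the threshold, 4 were no longer past it, 7 became past it and 3 turned. In 25 of the 33 results every alternative gave the same call. Leaving out each library in turn gave ranges of −0.075 to 0.30 for xyn10A and −0.069 to 0.18 for man5A in Δfbx23 against WT in VMMG, where −0.075 and −0.025 for xyn10A came without WT replicate 1 and 2 and −0.069 for man5A without Δfbx23 replicate 3. The ranges were 0.85 to 1.01 for xyl3A in the same comparison, 0.59 to 1.16 for xyn10A and 0.96 to 1.53 for man5A in Δfbx23 against WT in VMMC, −1.18 to −0.62 for man5A in Refbx23 against Δfbx23 in VMMC, and 0.91 to 1.47 for man5A in the difference of the Δfbx23 effect between the media. Median-ratio scaling gave 1.01 for xyn10A in Δfbx23 against WT in VMMC, −1.02 for man5A in Refbx23 against Δfbx23 in VMMC and 0.98 for xyl3A between the media in the WT. Library weights gave 0.77 for man5A in the difference of the Δfbx23 effect, and in some fits the weights stopped short of convergence. Apart from the library left out, the cause of these changes was not tested. At a mean of at least 5 FPKM, xyn10A and man5A were not tested between strains in VMMG.

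Replicate numbers did not pair the libraries, since correlations of same-numbered deviations ranged from −0.21 to 0.26 and in no comparison exceeded 0.1 in every pair. With a replicate block no call of the 3 genes changed. The block gave 6.07 for xyn10A between the media in the WT and 0.91 for xyl3A in Δfbx23 against WT in VMMG. It moved the number of genes called from 905 to 854 in that comparison and from 246 to 250 in Refbx23 against Δfbx23 in VMMC.

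Median-ratio scaling shifted the medium comparisons by −0.15 in the WT and −0.18 in Δfbx23. The depth behind the low VMMG values of xyn10A and man5A is unknown. With other measures or within 1 medium, 0 or 1 of the 5 genes most like a member were the same.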
